A study of Mus musculus with 9 samples.

Results

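The 9 genes described here encode the core of the T cell receptor complex and its first signalling steps: the CD3 chains Cd3d, Cd3e and Cd3g, the zeta chain Cd247, the co-receptor Cd4, the kinases Lck and Zap70, and the accessory receptors Cd2 and Cd28. They were taken by gene symbol from a table of read counts for 20603 genes, and all 9 had enough counts to be tested among 15613 genes. The counts came from messenger RNA libraries of mouse conjunctiva, the mucous membrane of the eyelids and eye surface, on a C57BL/6j background. Challenged Vegfr3iLECko mice carried Vegfr3 fl/fl and Prox1CreERT2, a Cre recombinase that tamoxifen activates in Prox1-expressing cells such as lymphatic endothelium. Challenged Ctrl and unchallenged Ctrl mice were Vegfr3 fl/fl littermates with no Cre, so Cre activity and loss of Vegfr3 cannot be told apart. Mice of all 3 groups received 5 tamoxifen injections of 75 mg/kg at week 5. They were then immunized intraperitoneally at week 6 with 250 µg ovalbumin (OVA), 0.3 µg pertussis toxin (PTX) and 5 mg aluminum hydroxide. Challenge began 14 days later and consisted of daily OVA eye drops (250 µg in 5 µL) to the right eye for 28 days, with saline in the left. Which eye or which animals gave the unchallenged tissue is not stated. Each group had 3 libraries, each pooled from 3 mice, so the spread between libraries is a spread between pools.

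The T cell receptor recognises peptides held by MHC molecules through an antigen-binding pair of chains that has almost no cytoplasmic tail of its own. Signals pass through the CD3 and zeta chains, whose tyrosine motifs are phosphorylated by Lck, the kinase bound to the CD4 and CD8 co-receptors, and then recruit the kinase Zap70. Zap70 phosphorylates the adaptor Lat, from which calcium and Ras signalling branch. CD2, an adhesion receptor that binds CD48 in mice, and CD28, the receptor for CD80 and CD86, add to this signal. Most of these genes are transcribed in T cells of every kind, and in the mucosa of the eye surface T cells lie in the epithelium and the stroma below it. NK cells also transcribe Cd247, Lck, Zap70 and Cd2.

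Promoter sequences are shown for the CD3 cluster, whose 3 genes lie beside each other, and for Lck, the member with the largest difference under challenge. They come from RefSeq (build GRCm38.p6), not from the study's build mm39, and run from 250 bases before to 50 bases after an annotated start. Entries were found for 6 of the 9 members, and these 6 had 9 entries. Capitals mark the ETS-type core GGAAGT or its reverse complement ACTTCC, and the RUNX-type core TGTGGT or its reverse complement ACCACA. ETS and RUNX factors are transcription factor families active in lymphocytes.
Cd3d (chr9:44981536-44981835, + strand): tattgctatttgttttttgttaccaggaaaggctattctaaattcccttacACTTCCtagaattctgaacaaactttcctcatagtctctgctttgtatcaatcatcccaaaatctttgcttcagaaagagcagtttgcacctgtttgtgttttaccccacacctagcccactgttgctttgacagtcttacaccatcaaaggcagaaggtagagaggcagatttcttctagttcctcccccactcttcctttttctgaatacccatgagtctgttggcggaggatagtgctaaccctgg
Cd3g (chr9:44980382-44980681, - strand): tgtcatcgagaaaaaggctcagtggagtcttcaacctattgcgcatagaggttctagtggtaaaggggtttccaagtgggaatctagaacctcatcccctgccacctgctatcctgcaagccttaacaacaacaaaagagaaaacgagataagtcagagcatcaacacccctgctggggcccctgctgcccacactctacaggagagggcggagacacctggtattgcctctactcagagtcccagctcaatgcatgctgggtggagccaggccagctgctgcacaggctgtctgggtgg
Cd3e (chr9:45009562-45009861, - strand): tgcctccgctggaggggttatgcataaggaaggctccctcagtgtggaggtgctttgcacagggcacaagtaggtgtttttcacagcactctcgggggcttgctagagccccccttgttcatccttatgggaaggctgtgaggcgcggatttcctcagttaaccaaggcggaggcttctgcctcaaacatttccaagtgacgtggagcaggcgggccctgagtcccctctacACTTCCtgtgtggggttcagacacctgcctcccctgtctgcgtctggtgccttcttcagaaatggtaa
Lck, upstream start (chr4:129573592-129573891, - strand): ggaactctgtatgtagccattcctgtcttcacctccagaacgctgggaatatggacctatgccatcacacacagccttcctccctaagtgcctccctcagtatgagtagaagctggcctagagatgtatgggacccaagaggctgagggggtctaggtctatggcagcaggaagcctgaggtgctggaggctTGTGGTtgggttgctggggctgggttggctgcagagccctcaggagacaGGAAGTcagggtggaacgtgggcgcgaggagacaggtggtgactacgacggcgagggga
Lck, downstream start (chr4:129558323-129558622, - strand): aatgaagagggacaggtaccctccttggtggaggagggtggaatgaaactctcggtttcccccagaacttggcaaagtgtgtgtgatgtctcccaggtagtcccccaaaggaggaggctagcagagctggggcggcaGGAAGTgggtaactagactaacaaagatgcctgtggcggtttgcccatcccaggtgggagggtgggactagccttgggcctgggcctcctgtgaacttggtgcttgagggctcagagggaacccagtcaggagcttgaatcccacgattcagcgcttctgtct
On either strand, the ETS-type letters were present in 6 of the 9 member entries and in 23.8% of all 32851 promoters of that length. The RUNX-type letters were in 2 of 9 entries, against 16.8% of all promoters. The E-box letters CANNTG were in 9 of 9, against 72.3%, and the GATA letters AGATAA in 1 of 9, against 11.2%. The letters TATAAA were in 0 of 9, against 13.6%. Each motif was searched on its own, so letters that overlap counted for both motifs. A match describes letters in the window and was not tested against expression.

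Total counts were 16490050 to 24746836 per library. Flt4, the gene for Vegfr3, was at 13.0, 5.07 and 5.32 CPM (read counts scaled to each library's size with TMM factors) in the challenged Vegfr3iLECko libraries 1 to 3, against 13.4, 20.3 and 20.1 CPM in the challenged Ctrl and 18.5, 26.8 and 13.5 CPM in the unchallenged Ctrl libraries. Knockout library 1 was thus only just below challenged Ctrl library 1. The conjunctival tissue label was met by its epithelial keratin genes Krt13 and Krt4, at 2127 CPM or more in every library. The lymph node markers Cr2, Cxcl13 and Ccl19 summed to 75.4 CPM or less. That highest sum, in knockout library 3, was mostly Cxcl13 (74.5 CPM) and exceeded the 22.2 CPM of the 9 members there. Whether lymphoid tissue was in the samples was not tested. Challenged Ctrl library 1 stood apart: it held the highest level of its group for 9 of 9 members, and the leukocyte gene Ptprc was at 217 CPM there and at 65.2 and 51.2 CPM in the other challenged Ctrl libraries. Library 1 was also the highest of its group for 7 of 9 members in unchallenged Ctrl and for 5 of 9 in challenged Vegfr3iLECko. Ptprc was highest in library 1 of each group. The range of the members' results, and the results of some named pathway genes, are given with and without challenged Ctrl library 1. Fits without it kept unchallenged Ctrl library 1. Medians over the pathway lists are given with all libraries only, and other pathway genes may also depend on that library.

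Daily OVA challenge was compared with no challenge in Ctrl mice to ask what challenge did to these genes. All 9 members were higher on average in challenged Ctrl than in unchallenged Ctrl conjunctiva, by log2 fold changes of 1.17 to 2.84 (median 2.07, against a median of -0.01 over all 15613 genes). Lck rose 7.18-fold, and it was the single member to pass an adjusted p of 0.05 over all genes by edgeR's quasi-likelihood test. Of all genes, 0.0576% passed as higher. At an unadjusted p under 0.05 all 9 members were higher by edgeR, against 6.77% of genes. The same-numbered libraries of these 2 groups deviated together, and with the replicate number as a block 4 members passed (Lck, Cd3d, Cd3g and Cd3e), against 1.18% of genes as higher. DESeq2 called 7 members higher, all but Cd247 and Cd28, against 2.72% of genes. In 8 of 9 members, all but Cd28, every challenged Ctrl library was above every unchallenged Ctrl library, which held for 7.21% of genes.

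The Vegfr3iLECko genotype was compared with Ctrl under the same challenge. All 9 members were lower in the challenged Vegfr3iLECko libraries than in the challenged Ctrl libraries, with no overlap of libraries in 9 of 9, a pattern seen in 6.24% of genes. The log2 fold changes were -2.33 to -0.78 (median -1.81, against 0.0027 over all genes). None of these passed over all genes: edgeR called 0 of 9 members (lowest adjusted p = 0.286) and 0% of all genes. At an unadjusted p under 0.05 it had 8 of 9 members lower, all but Cd247, against 4.53% of genes. DESeq2 called 5 members lower (Cd3d, Cd3e, Cd3g, Cd4 and Lck), against 0.724% of genes. This comparison and the one before share the challenged Ctrl libraries, including library 1, so a high value there moves both. Without that library the members' log2 fold changes were 0.76 to 2.66 with challenge and -1.69 to -0.41 with genotype, all of the same sign as with it. The RNA is from whole tissue, so fewer T cells and less of these RNAs per T cell cannot be told apart.

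**Figure D1:**
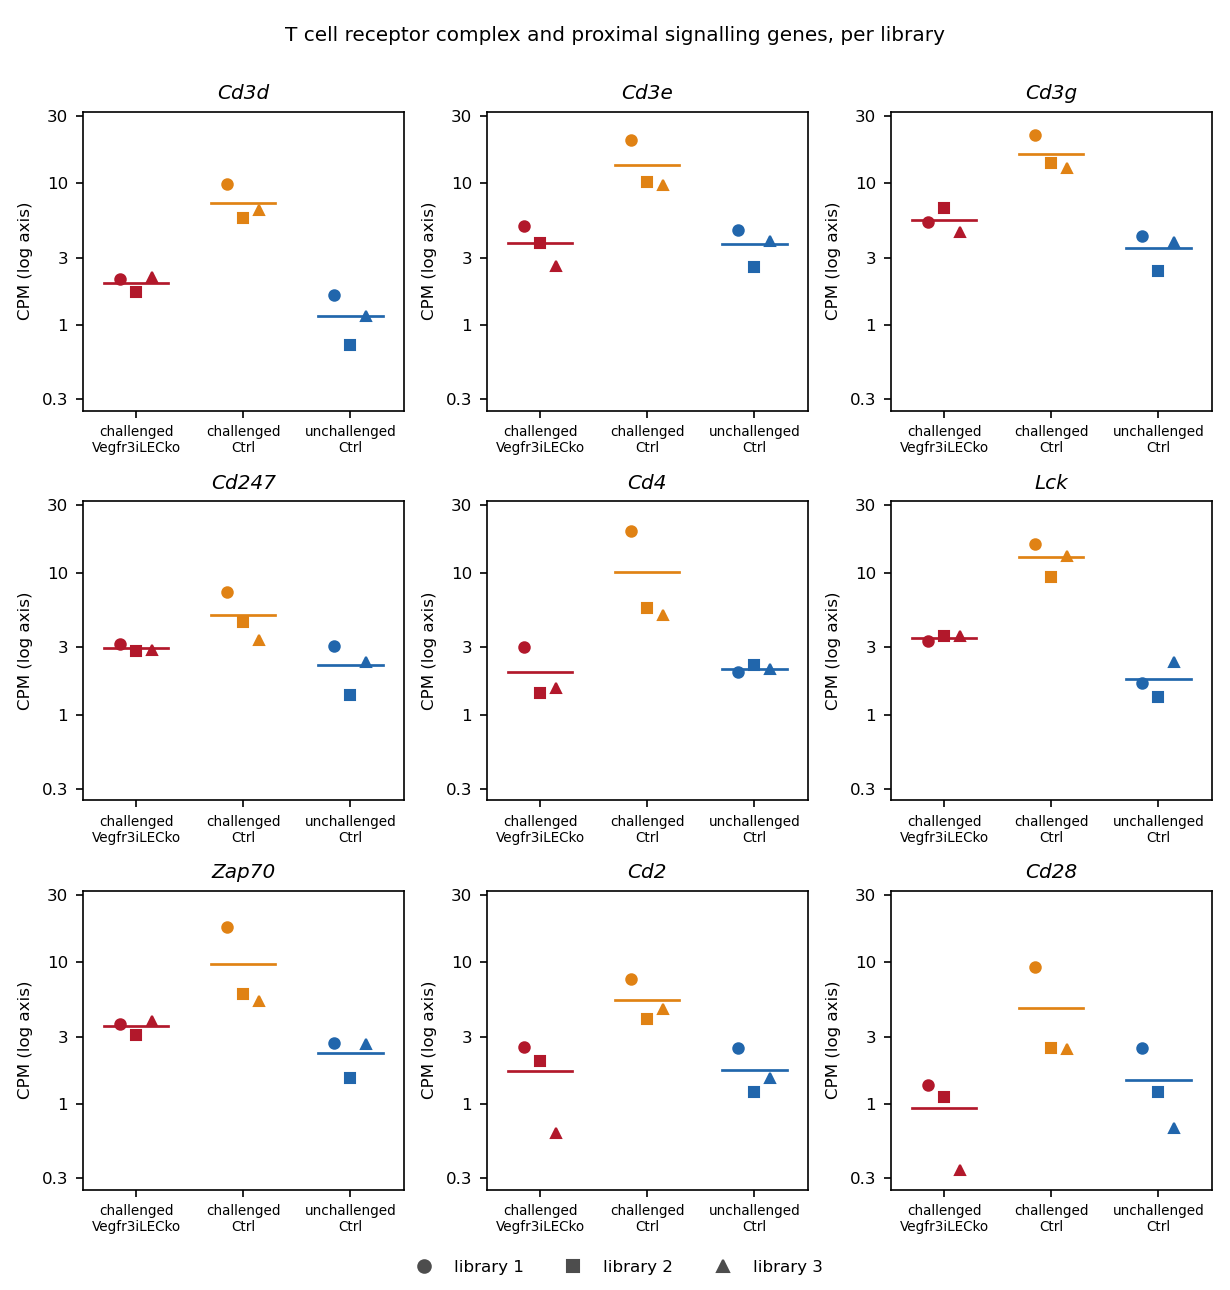
Level of each member gene in every library, in CPM on a log axis, by group; points are libraries (pools of 3 mice), with a symbol for each library number, and lines are group means. In every panel the 3 challenged Vegfr3iLECko points lie below the 3 challenged Ctrl points, while they overlap the unchallenged Ctrl points in 5 of 9 panels.

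Among the CD3 chains, Cd3d, the delta chain that pairs with epsilon, was at 2.10, 1.71 and 2.17 CPM in challenged Vegfr3iLECko, at 9.83, 5.69 and 6.44 CPM in challenged Ctrl and at 1.62, 0.727 and 1.15 CPM in unchallenged Ctrl libraries 1 to 3. Its 3 groups did not overlap, with the knockouts just above the unchallenged Ctrl. Under challenge in Ctrl it differed by 2.65 on the log2 scale (SE 0.39, edgeR adjusted p = 0.0667, block adjusted p = 0.0146). Between knockout and Ctrl under challenge it was -1.87 (SE 0.38, adjusted p = 0.299).

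Cd3e, the epsilon chain shared by both CD3 dimers, was at 4.98, 3.77 and 2.63 CPM in challenged Vegfr3iLECko, 20.3, 10.2 and 9.70 CPM in challenged Ctrl and 4.71, 2.57 and 3.94 CPM in unchallenged Ctrl. The knockout and unchallenged libraries covered nearly the same range. The log2 fold change was 1.84 with challenge (SE 0.39, edgeR adjusted p = 0.101, block adjusted p = 0.0299) and -1.81 with genotype (SE 0.39, adjusted p = 0.299). Cd3g, the gamma chain, was at 5.37, 6.66 and 4.57 CPM in challenged Vegfr3iLECko, 21.8, 13.8 and 12.9 CPM in challenged Ctrl and 4.24, 2.41 and 3.88 CPM in unchallenged Ctrl. As for Cd3d, the 3 groups of Cd3g did not overlap and the knockouts lay between the Ctrl groups. Its log2 fold change was 2.21 with challenge (SE 0.32, edgeR adjusted p = 0.0633, block adjusted p = 0.0206) and -1.55 with genotype (SE 0.31, adjusted p = 0.299).

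Cd247, the zeta chain that carries most of the complex's tyrosine motifs, had the smallest difference of the 9 members in both comparisons. It was at 3.15, 2.83 and 2.86 CPM in challenged Vegfr3iLECko, 7.36, 4.48 and 3.37 CPM in challenged Ctrl and 3.03, 1.38 and 2.36 CPM in unchallenged Ctrl. The lowest challenged Ctrl library was little above the highest library of each other group. The log2 fold change was 1.17 with challenge (SE 0.40, adjusted p = 0.239 by edgeR) and -0.78 with genotype (SE 0.39, adjusted p = 0.633), or 0.81 and -0.41 without challenged Ctrl 1. In GENCODE M21, 56.4% of the merged exon bases of Cd247 (3007 of 5329) are also exons of Pou2f1 on the other strand. Library strand is not stated, so reads of Cd247 and Pou2f1 may not have been separated. Pou2f1, a widely expressed transcription factor, was at 26.4 ± 2.43 CPM in challenged Vegfr3iLECko, 30.4 ± 5.27 CPM in challenged Ctrl and 28.3 ± 7.91 CPM in unchallenged Ctrl (SD, n = 3 each), well above Cd247 in every library. Whether Pou2f1 reads are among those of Cd247 was not tested. No other member shared more than 3.31% of its exon bases with another gene.

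Both kinases were highest in the challenged Ctrl libraries. Lck was at 3.31, 3.60 and 3.60 CPM in challenged Vegfr3iLECko, 16.0, 9.41 and 13.2 CPM in challenged Ctrl and 1.67, 1.34 and 2.36 CPM in unchallenged Ctrl. Its 3 groups were apart, with the knockouts nearer to the unchallenged Ctrl. With challenge the log2 fold change was 2.84 (SE 0.32, 95% interval 2.14 to 3.55, adjusted p = 0.0246 by edgeR). That call was lost without challenged Ctrl 3 (adjusted p = 0.0674), unchallenged Ctrl 2 (0.157) or unchallenged Ctrl 3 (0.0533), although the fold change stayed at 2.66 to 3.09 when any library was left out. With genotype it was -1.88 (SE 0.30, adjusted p = 0.286, 95% interval -2.55 to -1.20).

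Zap70, the kinase recruited to phosphorylated CD3 and zeta tails, was at 3.70, 3.07 and 3.89 CPM in challenged Vegfr3iLECko, 17.7, 6.01 and 5.36 CPM in challenged Ctrl and 2.72, 1.53 and 2.68 CPM in unchallenged Ctrl. Challenged Ctrl library 1 was far above the other libraries of its group, which lay close together. The log2 fold change was 2.07 with challenge (SE 0.48, adjusted p = 0.113 by edgeR) and -1.44 with genotype (SE 0.47, adjusted p = 0.448). Without challenged Ctrl 1 it was 1.31 with challenge and -0.68 with genotype.

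Cd4, the co-receptor for MHC class II, also depended on that library. It was at 3.00, 1.42 and 1.54 CPM in challenged Vegfr3iLECko, 19.6, 5.69 and 5.08 CPM in challenged Ctrl and 1.99, 2.26 and 2.10 CPM in unchallenged Ctrl. The challenged Ctrl libraries lay above all others, and the knockout range enclosed the unchallenged one. The log2 fold change was 2.25 with challenge (SE 0.55, adjusted p = 0.123 by edgeR) and -2.33 with genotype (SE 0.55, adjusted p = 0.338), or 1.35 and -1.43 without challenged Ctrl 1.

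Of the 9 members, the accessory receptors Cd28 and Cd2 had the lowest counts summed over the knockout libraries (60 and 110), with Cd3d next at 121. Cd2 was at 2.53, 2.01 and 0.629 CPM in challenged Vegfr3iLECko, 7.61, 3.99 and 4.68 CPM in challenged Ctrl and 2.51, 1.23 and 1.52 CPM in unchallenged Ctrl. Cd28 was at 1.36, 1.12 and 0.343 CPM in challenged Vegfr3iLECko, 9.34, 2.51 and 2.45 CPM in challenged Ctrl and 2.51, 1.23 and 0.682 CPM in unchallenged Ctrl. In knockout library 3 these values rest on 11 counts of Cd2 and 6 counts of Cd28. For Cd28, unchallenged Ctrl library 1 lay level with the 2 lower challenged Ctrl libraries, so these groups overlapped. With challenge the log2 fold change was 1.63 for Cd2 (SE 0.52, adjusted p = 0.217 by edgeR) and 1.69 for Cd28 (SE 0.71, adjusted p = 0.362). With genotype it was -1.64 for Cd2 (SE 0.52, adjusted p = 0.431) and -2.31 for Cd28 (SE 0.73, adjusted p = 0.431). Without challenged Ctrl 1 the Cd28 values were 0.76 and -1.38.

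**Figure D2:**
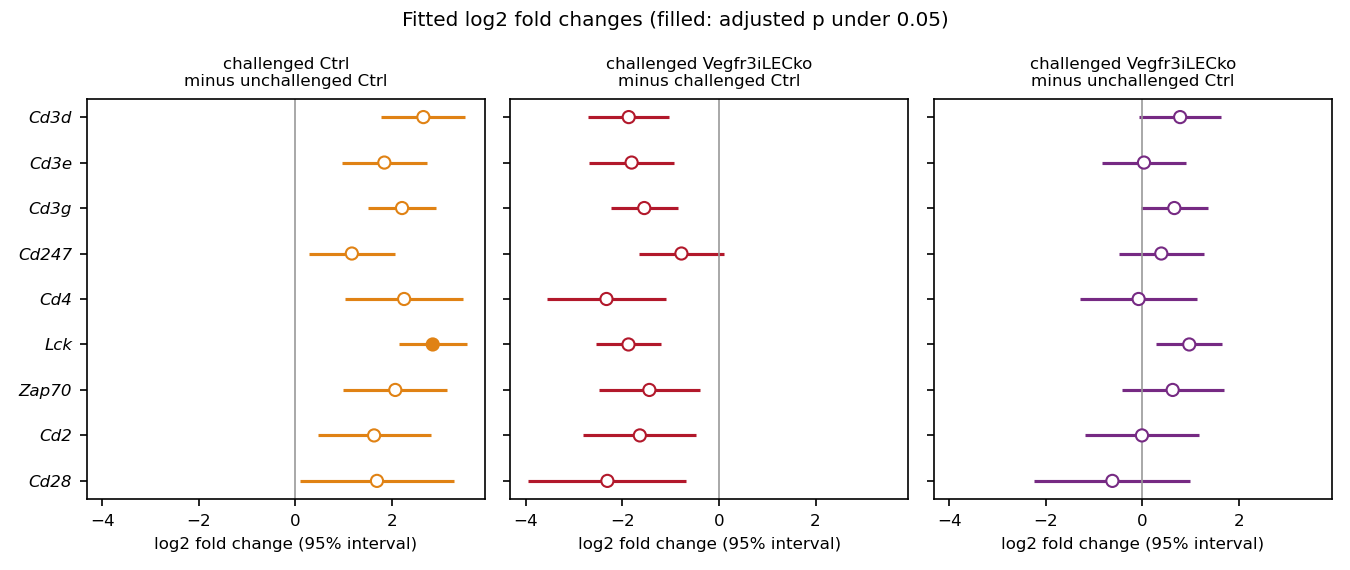
Fitted log2 fold change of each member with its 95% interval in the 3 comparisons, from the edgeR fit over all 9 libraries; filled points passed an adjusted p of 0.05. Intervals exclude 0 for 9 of 9 members with challenge, for 8 of 9 with genotype and for 1 of 9 (Lck) between challenged knockouts and unchallenged Ctrl.

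Challenged Vegfr3iLECko and unchallenged Ctrl conjunctiva were then set side by side. The summed level of the 9 members was 29.5, 26.2 and 22.2 CPM in challenged Vegfr3iLECko libraries 1 to 3, against 25.0, 14.7 and 20.7 CPM in unchallenged Ctrl. In challenged Ctrl the sum was 129.6, 61.8 and 63.2 CPM. The knockout and unchallenged sums overlapped, and every challenged Ctrl sum lay above them. The edgeR test called 0 of 9 members and 0% of all genes, and DESeq2 called 0 members, against 0.089% of genes. At an unadjusted p under 0.05, edgeR had 1 member higher (Lck), against 1.25% of genes. Lck had a log2 fold change of 0.97 (SE 0.31, 95% interval 0.28 to 1.65, adjusted p = 0.999). The intervals of the other 8 members included 0. Those of Cd3d, from -0.07 to 1.63, and Cd3g, from -0.04 to 1.36, left little room for a lower level in the knockouts. Those of Cd3e, from -0.83 to 0.90, and Cd28, from -2.24 to 0.99, left room for sizeable differences in both directions. Groups did not overlap for 4 members (Cd3d, Cd3g, Lck and Zap70), all higher in the knockouts, against 3.26% of genes. This comparison shares libraries with both others, so the 3 are not independent.

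Levels of different genes were compared per kilobase of merged exon (GENCODE M21). Cd3g led in every group, at 1.69 ± 0.323 CPM per kb in challenged Vegfr3iLECko, 4.96 ± 1.50 in challenged Ctrl and 1.07 ± 0.296 in unchallenged Ctrl (SD, n = 3 each). Cd28 was last in every group, at 0.154 ± 0.0870 CPM per kb in challenged Vegfr3iLECko, 0.779 ± 0.647 in challenged Ctrl and 0.241 ± 0.153 in unchallenged Ctrl. Lck came next after Cd3g in challenged Vegfr3iLECko (1.20 ± 0.0574 CPM per kb) and in challenged Ctrl (4.39 ± 1.13), but had 5 members above it in unchallenged Ctrl (0.612 ± 0.178). Between neighbours in the order the ranges over libraries overlapped throughout both Ctrl groups. In the knockouts they were apart for 3 pairs: Cd3g above Lck, Cd3e above Cd247 and Cd4 above Cd28. The annotation behind the counts is not given, so these lengths are approximate.

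Ratios between members within a library do not depend on how it was scaled, apart from the 0.1 CPM added to each level. Low counts still make them uncertain. Cd4 relative to the mean of the CD3 chains had a mean log2 ratio of -0.84 in challenged Vegfr3iLECko, -0.43 in challenged Ctrl and -0.18 in unchallenged Ctrl. The differences were -0.40 with genotype (p = 0.4), -0.25 with challenge (p = 0.5) and -0.65 between knockout and unchallenged (p = 0.2), by two-sided exact permutation tests in which 3 against 3 libraries cannot go below 0.1. Cd8a, a chain of the co-receptor for MHC class I, relative to Cd4 had a mean log2 ratio of 1.55 in challenged Vegfr3iLECko, 1.95 in challenged Ctrl and 0.33 in unchallenged Ctrl. The difference with challenge was 1.62, with every challenged Ctrl library above every unchallenged one, which is the smallest p the exact test allows (0.1). It was 1.22 between knockout and unchallenged (exact p = 0.3) and -0.41 with genotype (exact p = 0.7), where knockout library 1 (1.14-fold Cd4) and library 2 (6.64-fold) lay far apart. Adjusted over these 6 tests, the p-values were 0.6 to 0.7.

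Cd247 had a different balance with the CD3 chains in challenged Ctrl, a ratio chosen after the values were seen and therefore given with no test. It was 0.825, 0.810 and 0.963 times the CD3 mean in challenged Vegfr3iLECko, 0.454, 0.488 and 0.368 times in challenged Ctrl and 0.950, 0.835 and 0.904 times in unchallenged Ctrl. The challenged Ctrl libraries were the lowest, with no overlap. The shared exons with Pou2f1 given above bear on the count of Cd247. Cd2 was 0.469, 0.435 and 0.507 times the CD3 mean in challenged Ctrl, below its 0.791, 0.749 and 0.596 times in unchallenged Ctrl. Lck was 0.981, 1.01 and 1.41 times in challenged Ctrl, above its 0.538, 0.814 and 0.904 times in unchallenged Ctrl. For both genes the knockout range overlapped that of challenged Ctrl. Neither ratio was tested. Across the 9 libraries the 36 pairwise Pearson correlations between members, on log2(CPM + 0.1), were 0.607 to 0.975 (median 0.877). After the group means were taken out they were 0.103 to 0.896 (median 0.663). These are descriptions: the points share group differences and library 1 of the challenged Ctrl.

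**Figure D3:**
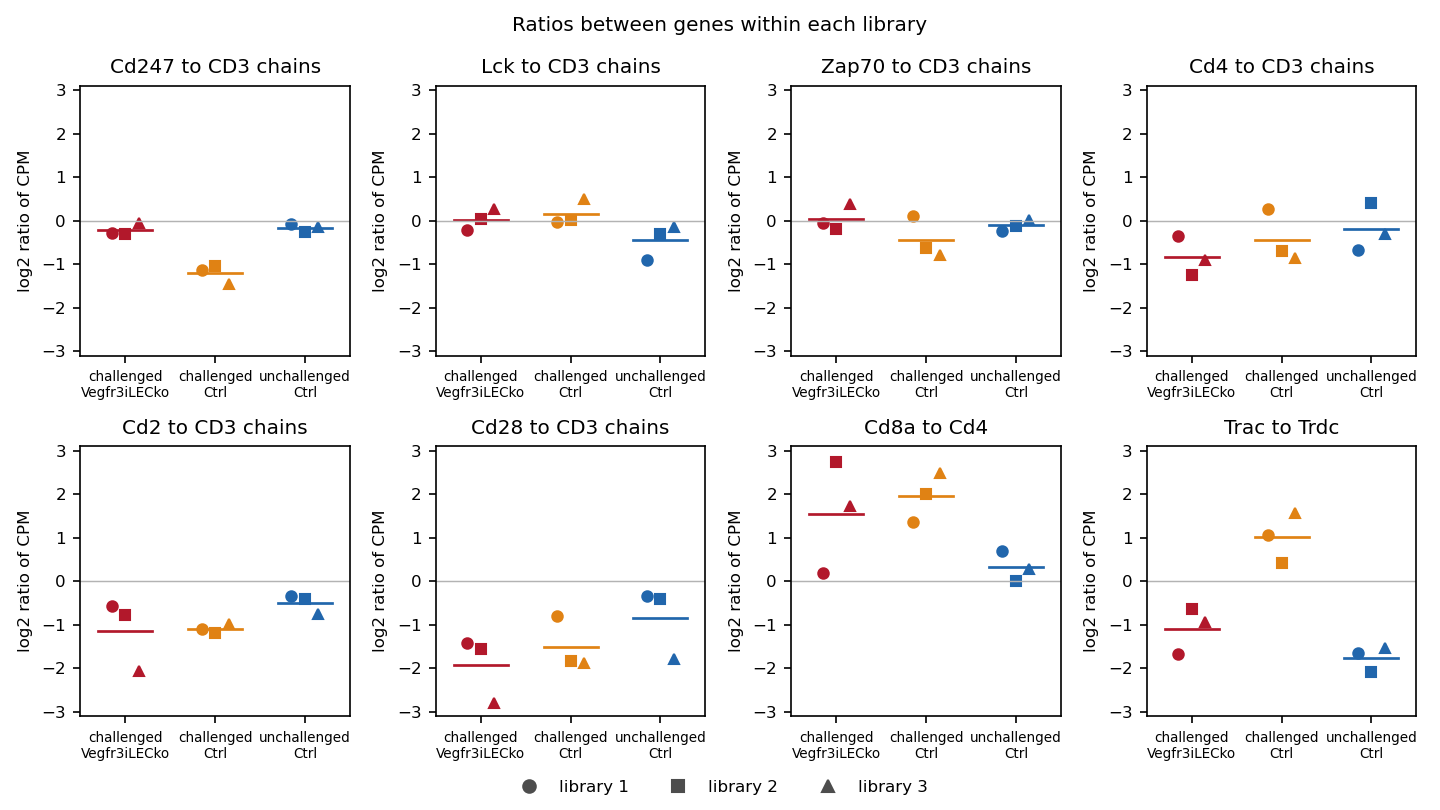
Log2 ratio of CPM between genes within each library, by group, against the mean log2 level of Cd3d, Cd3e and Cd3g in the first 6 panels; symbols give the library number and lines the group means. Cd247 is lowest against the CD3 chains in the 3 challenged Ctrl libraries, and the ratio of Trac to Trdc, not scaled for gene length, is highest in those 3 libraries.

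Other genes of the receptor pathway were taken from 6 lists with 49 entries, of which 44 were in the table and 43 were tested. With challenge, edgeR called 2 higher (Cd8a and Cd8b1; 0.0576% of all tested genes) and 0 lower. With the block 12 passed as higher (1.18% of all genes), and DESeq2 called 15 higher (2.72%). The median log2 fold change over the 43 was 1.23, against -0.01 over all genes. With genotype edgeR called 0, with 25 lower (4.53% of all tested genes) and 0 higher (3.95%) at an unadjusted p under 0.05. DESeq2 called 13 lower (0.724% of all genes), and the median was -1.14. Between challenged knockouts and unchallenged Ctrl the median was 0.18, with 0 called by edgeR, 2 higher (1.25% of all genes) and 1 lower (1.65%) at an unadjusted p under 0.05, and 0 called by DESeq2 (0.089% in either direction).

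Among the antigen-binding chains, Trac, the constant part of the alpha chain of alpha-beta T cells, was at 3.00, 3.54 and 3.09 CPM in challenged Vegfr3iLECko, 22.8, 9.01 and 10.1 CPM in challenged Ctrl and 2.98, 1.26 and 1.78 CPM in unchallenged Ctrl. Its log2 fold change was 2.80 with challenge (SE 0.45, edgeR adjusted p = 0.0734, block adjusted p = 0.0196) and -2.12 with genotype (SE 0.43, adjusted p = 0.299). Trdc, the constant part of the delta chain of gamma-delta T cells, was at 9.77, 5.60 and 6.06 CPM in challenged Vegfr3iLECko, 10.9, 6.68 and 3.37 CPM in challenged Ctrl and 9.63, 5.70 and 5.35 CPM in unchallenged Ctrl. The 3 groups of Trdc overlapped, with library 1 the highest of each. Its log2 fold change was 0.02 with challenge (95% interval -0.95 to 0.99, adjusted p = 0.995 by edgeR) and 0.04 with genotype (-0.94 to 1.01, adjusted p = 0.986). The ratio of Trac to Trdc was 0.314, 0.638 and 0.517 in challenged Vegfr3iLECko, 2.07, 1.34 and 2.94 in challenged Ctrl and 0.317, 0.235 and 0.346 in unchallenged Ctrl. It was highest in the challenged Ctrl libraries, and knockout library 1 fell among the unchallenged ones. This ratio was chosen after its values were seen and was not tested. Trbc1 and Trbc2, the beta chain constant genes, are near-identical, so their counts are uncertain and are not read further.

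Among adaptors, Lat, the scaffold phosphorylated by Zap70, was at 4.01, 3.36 and 2.74 CPM in challenged Vegfr3iLECko, 18.4, 7.84 and 9.18 CPM in challenged Ctrl and 2.72, 1.72 and 2.78 CPM in unchallenged Ctrl. Its log2 fold change was 2.29 with challenge (SE 0.39, edgeR adjusted p = 0.0839, block adjusted p = 0.0217) and -1.80 with genotype (SE 0.38, adjusted p = 0.299). Over the 13 adaptors tested the median was 1.98 with challenge and -1.79 with genotype. The most abundant, Grb2 and Nck1, are transcribed in most cell types and had log2 fold changes of 0.26 and -0.03 with challenge (adjusted p = 0.713 and 0.983). Kinases and phosphatases had a median of 0.63 with challenge and -0.73 with genotype. Within them Csk, the kinase that restrains Lck, was at 0.10 (SE 0.28, adjusted p = 0.952), and Ptprc, the phosphatase CD45 of all leukocytes, at 1.88 (SE 0.66, adjusted p = 0.257, block adjusted p = 0.0102). Without challenged Ctrl 1 the log2 fold change of Ptprc was 0.95 with challenge (edgeR adjusted p = 0.767), and with genotype it was -0.97, against -1.90 with all libraries.

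Distal signalling genes had smaller differences, with a median log2 fold change of 0.61 with challenge and -0.48 with genotype. Bcl10 and Malt1, partners in the route to NF-kB, were at 0.68 and 0.75 with challenge (edgeR adjusted p = 0.238 and 0.456). Without challenged Ctrl 1 Malt1 was at 0.12 with challenge (edgeR adjusted p = 0.955), and with genotype at -0.02, against -0.66 with all libraries. The ubiquitin ligases and negative regulators had a median of 0.38 with challenge and -0.40 with genotype. Cbl and Cblb were at 0.20 and 0.04 (adjusted p = 0.842 and 0.983). Ubash3a, a T cell regulator chosen after its values were seen, was at 3.42 (SE 0.61, adjusted p = 0.0842, block adjusted p = 0.0303). The co-receptors, accessory receptors and their ligands had a median of 2.17 with challenge and -1.95 with genotype. Cd8a was at 3.43, 9.97 and 5.32 CPM in challenged Vegfr3iLECko, 50.7, 23.2 and 28.8 CPM in challenged Ctrl and 3.30, 2.26 and 2.57 CPM in unchallenged Ctrl, and rose with challenge (log2 fold change 3.66, SE 0.45, adjusted p = 0.0339). Cd8b1, the other CD8 chain, rose with it (4.12, SE 0.54, adjusted p = 0.0405). Both calls were lost in each fit that left out challenged Vegfr3iLECko 3, challenged Ctrl 3, unchallenged Ctrl 2 or unchallenged Ctrl 3, with adjusted p-values of 0.0663 to 0.214, and that of Cd8b1 also without challenged Ctrl 1 (0.0746). With genotype Cd8a was at -2.46 (SE 0.43, adjusted p = 0.299).

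**Figure D4:**
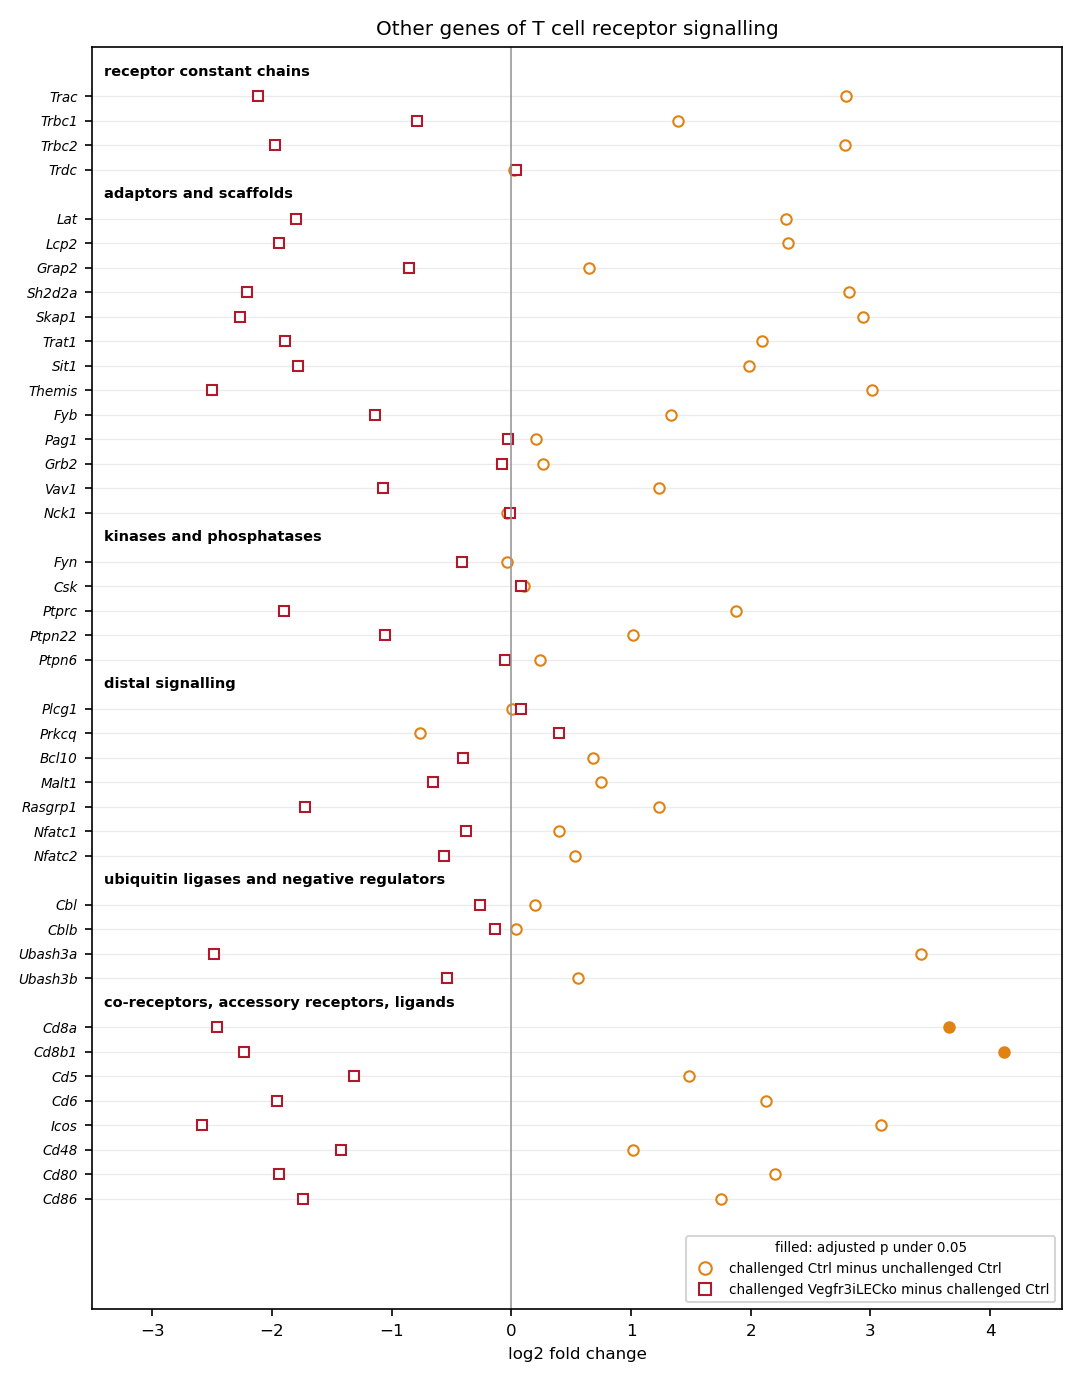
Fitted log2 fold change of 41 of the other tested genes of the receptor pathway, by role, with challenge in Ctrl (circles) and with genotype under challenge (squares); filled points passed an adjusted p of 0.05. Lat lies at 2.29 with challenge and -1.80 with genotype, and Grb2 at 0.26 and -0.08.

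The 10 genes whose pattern over the 9 libraries was most like the mean of the members, out of 14155 other genes with a mean of at least 1 CPM, were Lat, Mxd1, Runx3, Klrc1, Gch1, Coro1a, Pglyrp2, Trac, Spn and Il21r. Their Pearson correlations were 0.991 for Lat down to 0.975 for Il21r. Each member was also correlated with the mean of the other 8, at 0.984 for Cd3e, the highest, and at 0.810 for Cd28, the lowest. These correlations share the same libraries and group differences and are descriptions.

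Summed markers of other cell types differed between the groups too, in both directions. The leukocyte gene Ptprc was at 46.5, 24.9 and 17.5 CPM in challenged Vegfr3iLECko, 217, 65.2 and 51.2 CPM in challenged Ctrl and 55.3, 21.6 and 13.8 CPM in unchallenged Ctrl. The summed members per unit of Ptprc were 0.634 to 1.27 in challenged Vegfr3iLECko, 0.597 to 1.24 in challenged Ctrl and 0.452 to 1.50 in unchallenged Ctrl, and these ranges overlapped. Set against Ptprc, the members did not separate the groups. The 6 NK cell markers summed to 5.03 to 7.51 CPM in challenged Vegfr3iLECko, 16.7 to 38.8 CPM in challenged Ctrl and 1.89 to 7.95 CPM in unchallenged Ctrl. Nkg7, which T cells also transcribe, and Klrk1 made up most of that sum, while the NK receptor gene Ncr1 was at or below 0.837 CPM in every library and at 0 in 3 of 9. The sum was higher in every challenged Ctrl library than in any other library. Every challenged Ctrl library was above every unchallenged one for Nkg7, Klrk1, Eomes and Klre1, which held for 7.21% of genes. Eomes was at 0.717 to 0.990 CPM in challenged Ctrl, and Klre1 had too few counts to be tested. The values of Ncr1 and Klrb1c overlapped between challenged and unchallenged Ctrl. The 5 B cell markers summed to 1.53 to 1.91 CPM in challenged Vegfr3iLECko, 2.74 to 7.30 CPM in challenged Ctrl and 0.957 to 4.45 CPM in unchallenged Ctrl, and 1 of them, Cd79b, had enough counts to be tested. The 6 macrophage and monocyte markers summed to 492 to 886 CPM in challenged Vegfr3iLECko, 681 to 1321 CPM in challenged Ctrl and 474 to 932 CPM in unchallenged Ctrl. The 5 dendritic cell markers summed to 11.5 to 27.8 CPM in challenged Vegfr3iLECko, 21.4 to 53.4 CPM in challenged Ctrl and 11.4 to 25.9 CPM in unchallenged Ctrl. For B cell, macrophage and dendritic cell markers the challenged Ctrl range overlapped at least 1 other group. All 5 dendritic cell markers had log2 fold changes above 0 with challenge (median 1.29) and below 0 with genotype (median -1.06). The edgeR test called 0 in each comparison. At an unadjusted p under 0.05 it had 2 higher with challenge (6.77% of genes) and 2 lower with genotype (4.53%). DESeq2 called 1, Xcr1, higher with challenge (2.72% of genes) and lower with genotype (0.724%). The 7 skeletal muscle markers went the other way, with 1213 to 1452 CPM in challenged Vegfr3iLECko, 181 to 419 CPM in challenged Ctrl and 671 to 2918 CPM in unchallenged Ctrl. The 5 adipocyte markers summed to 7.09 to 18.6 CPM in challenged Vegfr3iLECko, 1.31 to 4.95 CPM in challenged Ctrl and 4.36 to 50.5 CPM in unchallenged Ctrl, and the 4 of them tested had medians of -3.63 with challenge and 1.56 with genotype on the log2 scale. The part of these differences in cell content in the members' values was not tested.

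**Figure D5:**
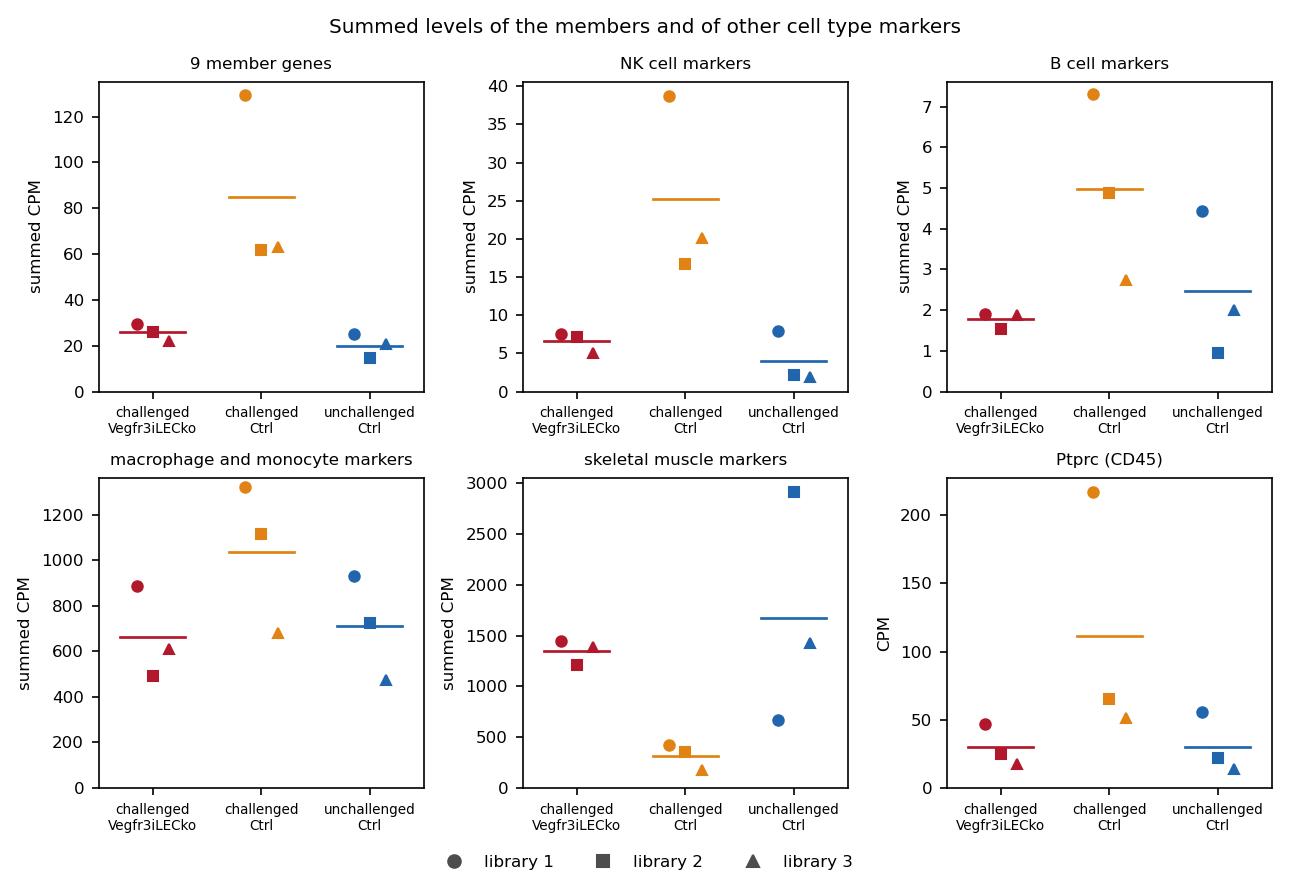
Summed CPM of the 9 members and of marker lists of other cell types, and CPM of Ptprc, in every library by group; symbols give the library number and lines the group means. Challenged Ctrl libraries are highest for the members and NK cell markers and lowest for skeletal muscle markers.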

How the data were processed

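The deposited table holds raw read counts per gene symbol, as whole numbers. HISAT2, Bowtie2, DESeq2 and the build mm39 are named in the submitters' processing notes, while neither versions nor the counting program, annotation or strand setting were given in the sources used here. Genes were filtered with filterByExpr (15613 of 20603 kept), and counts were scaled with TMM. All 9 libraries entered an edgeR 4.0.16 quasi-likelihood fit (R 4.3.3, limma 3.58.1) with 3 groups. P-values are two-sided and adjusted by Benjamini-Hochberg over all genes, with a threshold of 0.05, and adjusted p-values in the text are edgeR's unless DESeq2 is named. SE and 95% intervals come from that fit, with a biological coefficient of variation of 31.7%. Group values are means ± SD. A floor of 3 counts is 0.115 to 0.186 CPM; it covers counting error only. On simulated data with 200 changed genes, 32 of 34 changed 4-fold and 9 of 34 changed 2-fold were recovered. So were 28 of 33 set to 0.25-fold and 3 of 33 set to 0.5-fold. This was for challenged against unchallenged Ctrl among 15375 genes, with 4 false calls. The simulation gave every gene the same spread, with independent libraries and no library standing apart. These shares therefore need not hold for the members, of which Cd3g at 4.62-fold was not called. Libraries of a group were not copies of each other (chi-square of at least 29.3 per degree of freedom).

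Deviations from the group means of same-numbered challenged and unchallenged Ctrl libraries correlated at 0.458, 0.245 and 0.488. For this comparison the replicate numbers were therefore taken as pairs in the block fits only. This comes from the data, as the labels speak of 3 replicate experiments but not of what a number marks. The main fit, its intervals and the exact tests left the pairs out. Block adjusted p-values in the text are from a fit over all 9 libraries, so the knockouts share its replicate effect. Ratios used log2(CPM + 0.1). Alternatives were size factors (RLE) by DESeq2 1.42.0, its Wald test, no count filter, the replicate block, fits of the 2 groups compared, other pseudocounts and each library left out. Those for the other pathway genes, with the fits of named ones without challenged Ctrl 1, were added after seeing the data. The members and gene lists were chosen with earlier results of these data known. All 9 members and Flt4 were named. From each pathway list up to 4 genes past the threshold were named, or otherwise the 2 most abundant, together with the 10 genes most like the members. Of the pathway genes counted, 2 are not reported here by name.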

Additional observations from a re-analysis of the deposited data

How the results depend on the processing

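With challenge, 1 member and 10 genes in all were called. The members called numbered 7 with DESeq2 (770 genes), 3 with no count filter (20 genes), 0 in a fit of only the 2 groups (1 gene), 4 with the replicate block (267 genes) and 5 with the block in only the 2 groups (476 genes). With libraries left out singly, 0 to 3 members and 0 to 121 genes were called: 0 members without challenged Ctrl 3 or unchallenged Ctrl 2 or 3, 2 without challenged Ctrl 2 and 3 without unchallenged Ctrl 1. With genotype, 0 members and 0 genes were called, against 5 members and 242 genes with DESeq2 and 0 members and 22 genes with the replicate block. Same-numbered libraries of these 2 groups correlated at 0.339, -0.147 and 0.334, so the numbers were not taken as pairs. Between challenged Vegfr3iLECko and unchallenged Ctrl 0 genes were called, against 14 with DESeq2, none of them a member. Of the other pathway genes 2 were called with challenge, against 15 with DESeq2, 12 with the block, 13 with the block in only the 2 groups, 0 without the block in only the 2 groups and 0 to 4 with libraries left out singly. With genotype 0 of them were called, against 13 with DESeq2 and 1 with the block (Ptprc). In the first 2 comparisons the log2 fold changes of all 9 members kept their sign in all 15 other fits.

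The signs that turned belong to differences near 0. Between challenged Vegfr3iLECko and unchallenged Ctrl the log2 fold change of Cd3e was 0.03, and -0.22 to 0.24 with libraries left out singly, below 0 without knockout 1 (-0.22) or unchallenged Ctrl 2 (-0.18). That of Cd4 was -0.08 (-0.51 to 0.11), above 0 without knockout 2 (0.11) or 3 (0.074). That of Cd2 was -0.01 (-0.40 to 0.38), above 0 without knockout 3 (0.38) or unchallenged Ctrl 1 (0.34). The log2 ratio of Cd4 to the CD3 chains with challenge (-0.25) was -0.60 to 0.050 when 1 library was left out, and that of Cd8a to Cd4 with genotype (-0.41) was -0.998 to 0.27. Without challenged Ctrl 1, the log2 fold changes of Trdc (0.02), Nck1 (-0.03) and Cblb (0.04) with challenge were -0.45, 0.084 and -0.071, and the one of Csk with genotype (0.08) was -0.13. The cause of these changes was not tested. Depth limits Cd28 and Cd2 most, with 6 and 11 counts in knockout 3.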
